A study of Mus musculus with 9 samples.

Results

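Matrix metalloproteinases and their inhibitors were followed in mouse macrophages activated through CD40 in the presence of either of 2 TRAF-STOP compounds. The listed genes were Mmp8, Mmp9, Mmp12, Mmp13, Mmp14, Mmp19, Timp1, Timp2, Adam8 and Adam17. Members were chosen by gene symbol in the platform annotation, and a probe was kept when its detection p-value was under 0.05 on 3 or more of the 9 arrays. Of 18 probes for the 10 genes, 14 were kept, out of 16415 kept among the 45281 probes of the array, and they covered 9 of the 10 genes, among 9081 genes with a kept probe. The compound-treated groups were T6877002 (compound 6877002) and T6860766 (compound 6860766), and the group CTRL received vehicle. All 3 groups were bone marrow-derived macrophages of C57Bl/6 mice, grown in medium conditioned by L929 cells, a fibroblast line that secretes M-CSF. The compound or vehicle was present for 1 h, and FGK45, an antibody that triggers CD40, was then added at 25 ug/ml for 8 h in every group, vehicle included. The labels give no compound dose, and macrophages without the antibody were not analysed here, so no value below is a response to CD40 itself. Each group had 3 arrays, of mouse numbers 1, 2 and 3, and the labels do not say whether the same animals served all groups.

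Matrix metalloproteinases are zinc-dependent enzymes that cut proteins of the extracellular matrix, and most are made as inactive proenzymes that are activated by removal of a propeptide. TIMP proteins bind the active site and block it, and ADAM8 and ADAM17 are membrane-anchored relatives whose known substrates are mainly cell surface proteins. Macrophages are a major source of these enzymes in atherosclerotic plaques, where breakdown of collagen and elastin is linked to thinning of the fibrous cap.

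The macrophage label was borne out by its markers, since 9 of 9 macrophage marker genes with a probe were detected on all 9 arrays. Their summed linear signal was 69050 to 71170 on the 6877002 arrays, 65320 to 71710 on the 6860766 arrays and 69600 to 71420 on the vehicle arrays. Among them Fcgr1, an IgG receptor, differed from vehicle by 0.40 ± 0.10 with 6877002 (adjusted p = 0.0335) and by -0.55 ± 0.10 with 6860766 (adjusted p = 0.00297) on the log2 scale, and the call for 6877002 was lost without 6877002 replicate 2 or 3 or vehicle replicate 1 or 2 (0.33 to 0.39, adjusted p = 0.112 to 0.194). Mertk, another of these markers, rose with 6877002 (0.50 ± 0.11, adjusted p = 0.0205, held under 17 of 26 other settings) and did not pass with 6860766 (0.14, adjusted p = 0.716). Of 11 neutrophil markers 7 were detected, with S100a8 reaching 10.53 on the log2 scale, while the neutrophil genes Cxcr2, Retnlg and Prtn3 were detected on none. The neutrophil sum overlapped between groups (2595 to 2905 with 6877002, 2492 to 2820 with 6860766, 2500 to 2843 with vehicle), and 0 of the 7 detected genes passed the test in any comparison. Of 10 fibroblast markers only Acta2 was kept, of 8 mast cell markers 1, of 9 osteoclast markers 5 and of 5 T and B cell markers 0. The osteoclast marker Dcstamp, a fusion protein of osteoclasts and macrophage giant cells, was detected on 2 of 3 arrays with 6877002, 3 of 3 with 6860766 and 0 of 3 with vehicle. It thus met the detection rule through the compound groups, where it is high, and against vehicle only a bound can be given. Dcstamp was at least 1.42-fold higher with 6860766 than with vehicle (adjusted p = 0.048, held under 12 of 25 other settings). It did not pass with 6877002 (adjusted p = 0.0848). When all probes were tested, detected or not, the 6860766 call was lost (adjusted p = 0.0508). The Dcstamp call was lost without 6860766 replicate 1 or 2, vehicle replicate 2 or 3, or 6877002 replicate 3 (adjusted p = 0.0702 to 0.221). The summed signal of the osteoclast markers was 744.1 to 865 with 6877002, 770.8 to 896.6 with 6860766 and 774.3 to 828.9 with vehicle, and its part in the results was not tested. The summed signal of 8 dendritic cell markers, 2 of them detected, was lower on all 3 of the 6877002 arrays (387 to 407.6). It was 425.3 to 438.4 on the 6860766 arrays and 418.7 to 446 on the vehicle arrays, and its part in the results was not tested. Of the 2, Batf3 was lower with 6877002 than with vehicle on both probes without passing (-0.44 and -0.54, adjusted p = 0.15 and 0.0965). Ccr7 went the other way (0.19, adjusted p = 0.623), and 5 of the 8 markers were detected on no array. The sums include probes that were not detected, and such sums separated groups in other lists too. The T and B cell sum, with 0 genes detected, was 170.6 to 183.9 with 6877002, 169.7 to 172.8 with 6860766 and 166.9 to 169.2 with vehicle. The mast cell sum, with 1 gene detected, was 279.8 to 289.1, 291.8 to 306.3 and 283.4 to 290.4 in that order. These are bulk samples, in which fewer cells of a type and less RNA per cell cannot be told apart.

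Upstream sequences are shown for the genes on which the comparisons turned, Mmp12, which rose with both compounds, and Mmp14, which fell with 6860766, and for Mmp13, whose promoter carries a textbook AP-1 element. AP-1, a dimer of FOS and JUN proteins, is a long-known activator of metalloproteinase promoters and lies downstream of CD40. Each line gives the 250 bases before an annotated transcript start, 5′ to 3′ on the plus strand, from RefSeq on build GRCm38.p6. Capitals mark the letters TGANTCA, where N is any base, searched on both strands. Mmp12 has 2 annotated starts.
Mmp12 upstream start, chr9:7344147-7344396: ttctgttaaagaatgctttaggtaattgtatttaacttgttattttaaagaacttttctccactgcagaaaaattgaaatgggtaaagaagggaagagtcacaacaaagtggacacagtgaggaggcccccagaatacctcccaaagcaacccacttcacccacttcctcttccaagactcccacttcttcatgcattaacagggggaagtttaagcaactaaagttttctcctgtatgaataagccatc
Mmp12 downstream start, chr9:7347124-7347373: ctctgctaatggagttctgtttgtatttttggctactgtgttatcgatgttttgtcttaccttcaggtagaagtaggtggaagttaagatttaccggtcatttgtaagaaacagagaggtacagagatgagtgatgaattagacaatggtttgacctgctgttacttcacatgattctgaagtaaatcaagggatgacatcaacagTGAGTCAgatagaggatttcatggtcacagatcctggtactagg
Mmp13, chr9:7272264-7272513: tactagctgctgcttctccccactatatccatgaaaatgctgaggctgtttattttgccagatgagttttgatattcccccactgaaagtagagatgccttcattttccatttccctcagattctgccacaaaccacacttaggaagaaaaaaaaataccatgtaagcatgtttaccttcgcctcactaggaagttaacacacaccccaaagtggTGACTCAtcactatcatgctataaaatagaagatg
Mmp14, chr14:54431348-54431597: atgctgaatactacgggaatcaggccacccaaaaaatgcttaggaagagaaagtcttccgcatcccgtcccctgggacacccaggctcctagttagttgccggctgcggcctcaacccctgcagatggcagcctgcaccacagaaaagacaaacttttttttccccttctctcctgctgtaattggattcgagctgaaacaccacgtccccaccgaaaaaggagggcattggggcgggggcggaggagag

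The AP-1 letters TGANTCA stood 44 bases before the downstream Mmp12 start and 35 bases before the Mmp13 start. No other window of the 9 searched for 8 members held them, against 6.75% of 32851 mouse promoter windows of the same length. The ETS letters AGGAAG were in 6 of the 9 windows (29.5% of all windows). Among them were the upstream Mmp12 start at 87 bases, Mmp13 at 109 and 62 bases and Mmp14 at 209 bases before the start. The TATA letters TATAAA were found in 1 of the 9 windows, that of Mmp13 at 16 bases (12.4% of all windows). The NF-kB consensus was found in 1 of the 9 windows, that of the upstream Mmp12 start at 129 bases (7.25% of all windows). Motifs were searched on both strands, and none of the matches named here overlapped. These matches describe the letters alone.

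Of the 23 Mmp genes that the RefSeq gene table lists for the mouse, 10 lie side by side on chromosome 9 between 7272514 and 7699585 of GRCm38.p6. The cluster starts with Mmp13 (chr9:7272514-7283333) and Mmp12 (chr9:7344397-7360461) and includes Mmp8 (chr9:7558429-7568486). Of the 9 cluster genes with a probe, 3 were detected, Mmp13, Mmp12 and Mmp1a. Mmp9 (chr2:164940326-164955850), Mmp14 (chr14:54431598-54442456) and Mmp19 (chr10:128790910-128800827) lie elsewhere, as do Timp1 (chrX:20870166-20874737), Timp2 (chr11:118301061-118355411), Adam8 (chr7:139978932-139995207) and Adam17 (chr12:21323509-21373632).

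Mmp8, the neutrophil collagenase, gave no signal over background. Its only probe reached a detection p-value under 0.05 on 0 of 9 arrays, with a highest raw intensity of 115.2. Mmp19, a soluble enzyme that cuts basement membrane proteins, was at the edge of the rule, since its kept probe was detected on exactly 3 arrays. Those were 6860766 replicates 1 and 2 (5.09 and 5.25 on the log2 scale) and vehicle replicate 1 (5.18), while the other 6 arrays read 4.62 to 4.78 and all 3 of the 6877002 arrays were not above background. The kept Mmp19 probe passed in none of the comparisons (adjusted p 0.504 to 0.848). Just outside the rule lay another Mmp14 probe, detected on 1 array. Another Mmp19 probe and another Adam8 probe were detected on none.

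**Figure D1:**
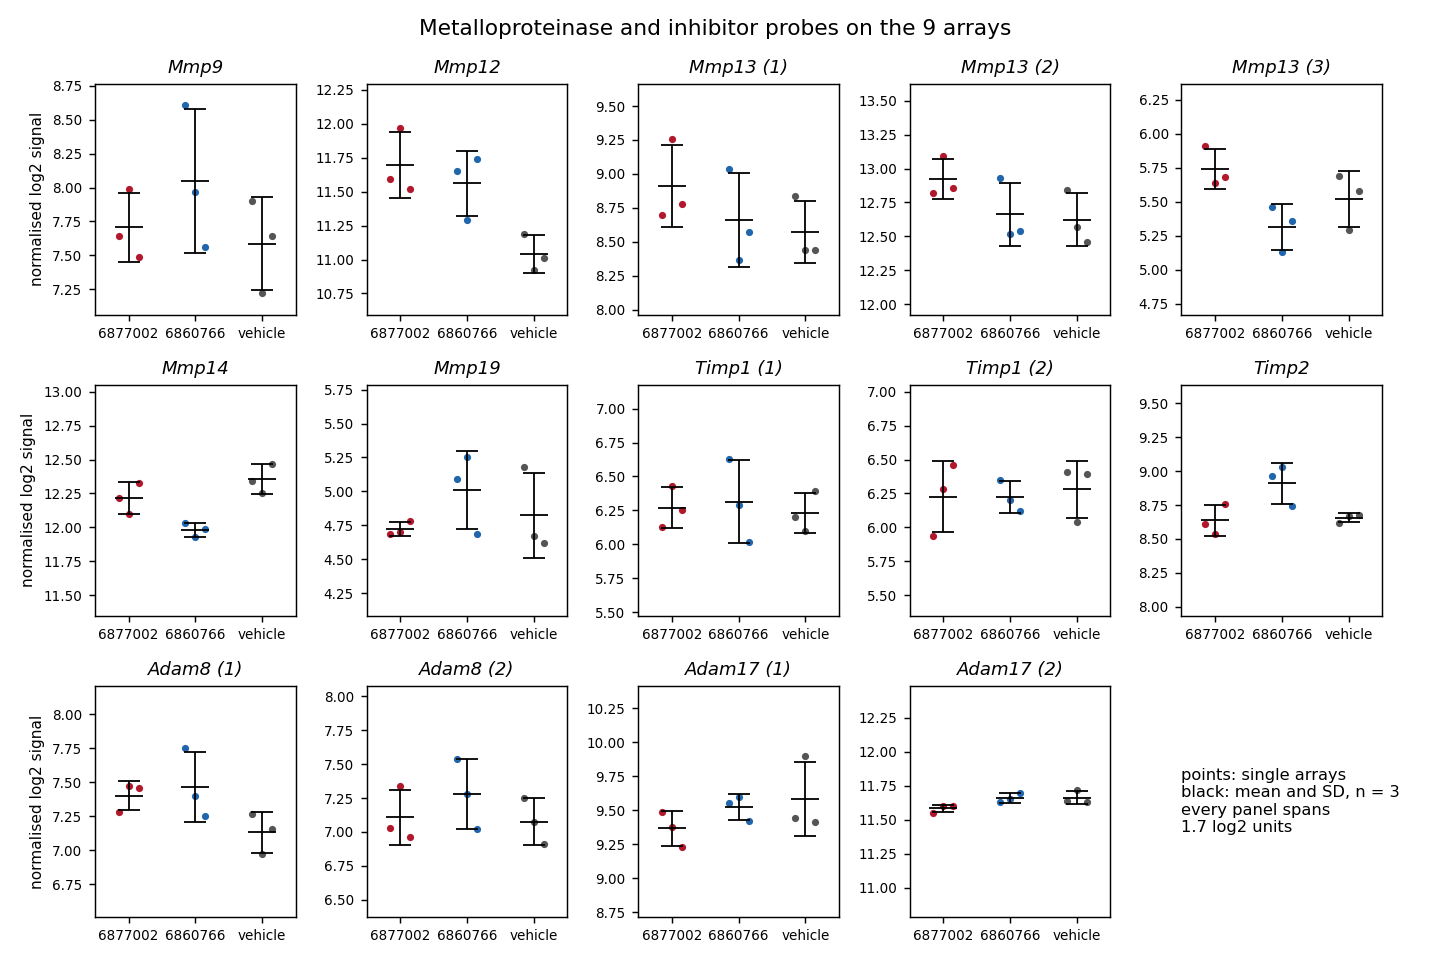
Normalised log2 signal (vertical axes) of the 14 kept probes on each array, with the groups 6877002, 6860766 and vehicle from left to right. Points are single arrays, black marks are the mean and SD of 3 arrays, every panel spans the same height, and numbers in brackets separate probes of 1 gene. The 3 vehicle arrays of Mmp12 lie below all 6 compound arrays, and the 3 arrays of 6860766 lie lowest for Mmp14.

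The first comparison set 6877002 against vehicle. Mmp12, the macrophage elastase, rose, and 0 of the other 8 detected genes passed the test. The Mmp12 probe ILMN_1250421 read 11.59, 11.97 and 11.52 on the log2 scale on 6877002 replicates 1, 2 and 3, against 11.19, 10.92 and 11.01 on vehicle replicates 1, 2 and 3. The lowest array with 6877002 was above the highest with vehicle. The difference was 0.65 ± 0.11 (SE, n = 3 arrays per group; 95% interval 0.41 to 0.89), a 1.57-fold rise, with an adjusted p of 0.00241 in limma.

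Thus 1 of 14 probes passed, 1 higher and 0 lower, where 2.52% of all 16415 probes passed in this comparison, 1.68% higher and 0.841% lower, and 4 of 14 had an unadjusted p under 0.05, against 15.5% of all probes. The median difference of the 14 was 0.04, beside -0.01 over all probes. The groups did not overlap for 3 of 14 probes (Mmp12 and Adam8 probe ILMN_1224005 higher, Adam17 probe ILMN_2594718 lower), a state found in 22.2% of all probes, 10.7% higher and 11.6% lower. The Mmp12 call was lost with slide as a block, where the difference was 0.42 ± 0.12 (adjusted p = 0.0667), and with a spread that does not follow the mean (adjusted p = 0.0894). It held under the other 24 settings, each array left out included, and within slide 4, which carried 1 array with 6877002 and 1 with vehicle, the difference was 0.50.

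Mmp13, an interstitial collagenase, had 3 kept probes, and all 3 had higher means with 6877002 than with vehicle without passing the test. Its brightest probe, ILMN_2737685, read 12.82, 13.09 and 12.86 on 6877002 replicates 1, 2 and 3, against 12.84, 12.57 and 12.46 on vehicle replicates 1, 2 and 3. The groups overlapped, because vehicle replicate 1 lay above 6877002 replicate 1. The difference was 0.30 ± 0.11 (0.08 to 0.52), with an adjusted p of 0.153, and the other Mmp13 probes differed by 0.34 ± 0.15 (adjusted p = 0.291) and 0.22 ± 0.16 (adjusted p = 0.527). The brightest Mmp13 probe passed with slide set (slides 1 and 2 against 3 and 4) as a block (0.44, adjusted p = 0.043) and in a fit of these groups alone (0.30, adjusted p = 0.0346), and within slide 4 its difference was 0.40.

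No probe of the other members passed between 6877002 and vehicle. Mmp9, a gelatinase stored in neutrophils and secreted by macrophages, averaged 7.71 ± 0.25 with 6877002 and 7.59 ± 0.35 with vehicle (SD, n = 3 each; difference 0.12 ± 0.20, SE, adjusted p = 0.828). Mmp14, a membrane-anchored collagenase that also activates proMMP2, differed by -0.14 ± 0.07 (adjusted p = 0.381). Adam17, the sheddase that releases TNF, differed by -0.22 ± 0.11 (adjusted p = 0.338) and -0.08 ± 0.06 (adjusted p = 0.543) on its 2 probes.

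Adam8 probe ILMN_1224005 differed by 0.27 ± 0.13 (adjusted p = 0.299) and Adam8 probe ILMN_2756613 by 0.04 ± 0.14 (adjusted p = 0.929), so the probes of this leukocyte sheddase did not give the same size. The differences of the inhibitors were small, with Timp1 at 0.04 ± 0.15 and -0.05 ± 0.15 on its 2 probes and Timp2 at -0.02 ± 0.09. The 95% interval for Timp2 was -0.21 to 0.17, and those for the Timp1 probes were wider (-0.28 to 0.36 and -0.37 to 0.26).

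The second comparison set 6860766 against vehicle. Mmp12 rose here too, Mmp14 fell, and the other 7 detected genes did not pass. Mmp12 read 11.65, 11.29 and 11.74 on 6860766 replicates 1, 2 and 3, all above the highest vehicle array, 11.19. The difference was 0.52 ± 0.11 (0.28 to 0.76), a 1.43-fold rise, with an adjusted p of 0.0162. Both differences of Mmp12 use the same 3 vehicle arrays.

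The Mmp12 rise with 6860766 held under 19 of 26 other settings. It was lost without 6860766 replicate 1 (0.47, adjusted p = 0.0601), without vehicle replicate 2 (0.46, adjusted p = 0.128), without vehicle replicate 3 (0.50, adjusted p = 0.0706), without mouse number 3 (0.36, adjusted p = 0.143), with slide as a block (0.33, adjusted p = 0.125), with array weights (0.41, adjusted p = 0.0641) and without a trend (adjusted p = 0.193), and within slide 1 the difference was 0.28.

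Mmp14 probe ILMN_1240726 read 12.03, 11.93 and 11.99 on 6860766 replicates 1, 2 and 3, against 12.34, 12.25 and 12.47 on vehicle replicates 1, 2 and 3. All 3 arrays with 6860766 lay below all 3 with vehicle, and they were the tightest group of this probe (SD 0.05). The difference was -0.37 ± 0.07 (-0.52 to -0.22), with an adjusted p of 0.00672, which is 1.29-fold lower with 6860766. A fit with slide as a block gave -0.35, and the arrays of slide 1 alone gave -0.36. The Mmp14 call held under 22 of 26 other settings and was lost with median scaling (adjusted p = 0.0896), without a trend (adjusted p = 0.126), without vehicle replicate 3 (-0.31, adjusted p = 0.0506) and without mouse number 2 (-0.28, adjusted p = 0.287).

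In this comparison 2 of 14 probes passed, 1 higher and 1 lower, where 2.4% of all probes passed, 0.865% higher and 1.54% lower, and 5 of 14 had an unadjusted p under 0.05, against 11.9% of all probes. The median of the 14 differences was 0.08, beside 0.01 over all probes. The groups did not overlap for 3 of 14 probes (Mmp12 and Timp2 higher, Mmp14 lower), as in 14.9% of all probes, 7.35% higher and 7.55% lower.

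Timp2, which inhibits many metalloproteinases and also takes part in proMMP2 activation at MMP14, read 8.96, 9.03 and 8.74 with 6860766, against 8.62, 8.67 and 8.68 with vehicle. Every array with 6860766 was above every array with vehicle, by a small margin for replicate 3. The difference was 0.26 ± 0.09 (0.07 to 0.44) with an adjusted p of 0.191, so it did not pass. Timp2 passed with slide as a block (0.34, adjusted p = 0.0447) and without 6860766 replicate 3 (0.34, adjusted p = 0.0352).

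Mmp9 spread widely with 6860766, at 8.61, 7.97 and 7.56 on replicates 1, 2 and 3, against 7.90, 7.22 and 7.64 with vehicle. The groups overlapped, with 6860766 replicate 3 below vehicle replicates 1 and 3. The difference of 0.46 ± 0.20 (0.04 to 0.88) had an adjusted p of 0.354, and without 6860766 replicate 3 it was 0.70 (adjusted p = 0.0233). Mmp9 also had the largest range over the 9 arrays of the 14 probes, 1.39 log2 units.

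Adam8 differed by 0.34 ± 0.13 (adjusted p = 0.238) and 0.20 ± 0.14 (adjusted p = 0.627) between 6860766 and vehicle. Adam17 differed by -0.06 ± 0.11 (adjusted p = 0.896) on the first probe and, on the brighter probe ILMN_2594718, averaged 11.66 ± 0.04 with 6860766 and 11.66 ± 0.05 with vehicle (SD), with a 95% interval of -0.13 to 0.12. The Mmp13 probes differed by 0.08 ± 0.15, 0.04 ± 0.11 and -0.21 ± 0.16, and the Timp1 probes by 0.08 ± 0.15 and -0.06 ± 0.15, with adjusted p-values of 0.688 to 0.936.

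**Figure D2:**
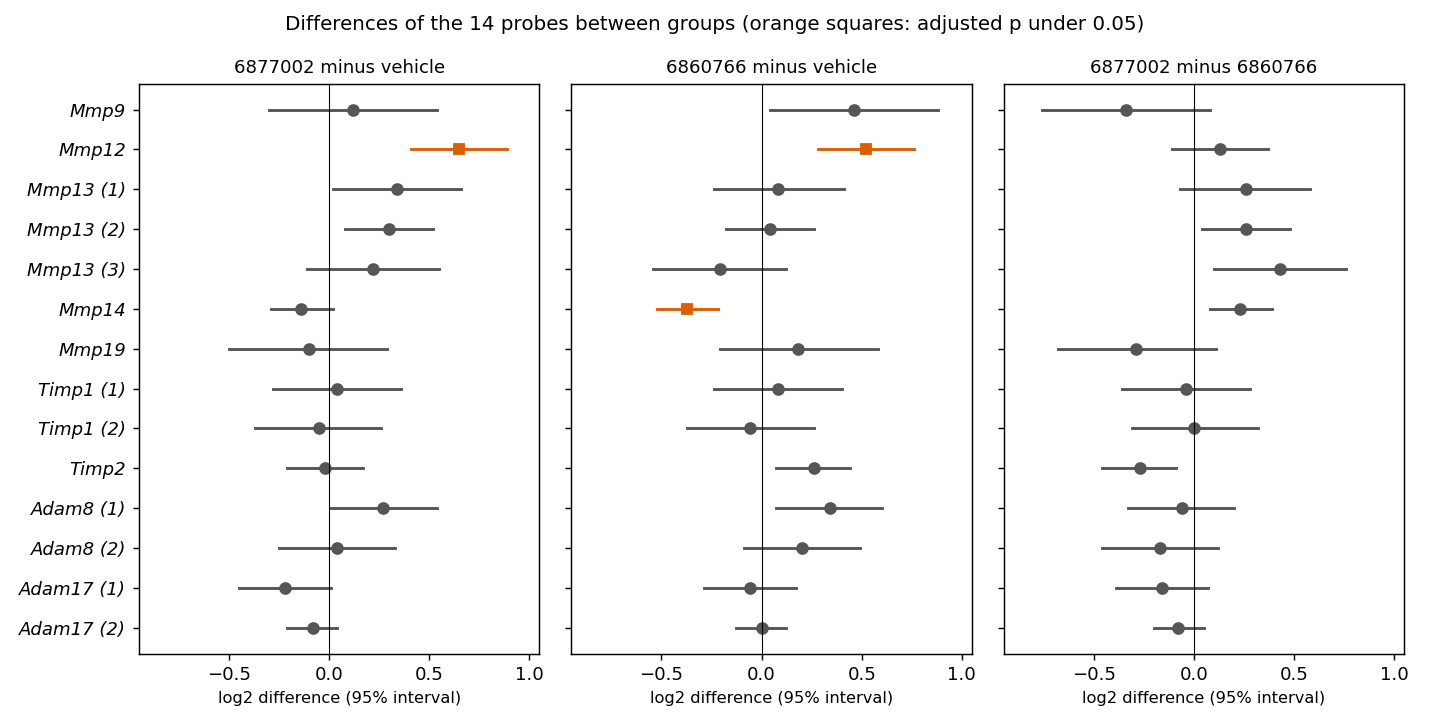
Log2 differences of the 14 kept probes in the comparisons 6877002 minus vehicle, 6860766 minus vehicle and 6877002 minus 6860766 (horizontal axes), with 95% intervals from limma as bars. Orange squares mark an adjusted p under 0.05: Mmp12 at 0.65 and 0.52 against vehicle, and Mmp14 at -0.37 with 6860766.

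The last comparison was between the 2 compounds, at doses the labels do not give. None of the 9 detected member genes passed in limma (0 of 14 probes, where 3.95% of all probes passed, 3% higher and 0.95% lower), and 4 of 14 probes had an unadjusted p under 0.05, against 15.8% of all probes. The median of the 14 differences, 6877002 minus 6860766, was -0.05, beside -0.02 over all probes. Mmp12 averaged 11.69 ± 0.24 with 6877002 and 11.56 ± 0.24 with 6860766 (SD, n = 3 each), and the difference was 0.13 ± 0.11 (SE) with a 95% interval of -0.11 to 0.37. A miss of the threshold does not show that the compounds act alike on Mmp12.

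The largest difference between the compounds was that of the dimmest Mmp13 probe, ILMN_2799267, which read 5.91, 5.64 and 5.68 with 6877002, against 5.46, 5.13 and 5.36 with 6860766. All 3 arrays with 6877002 were above all 3 with 6860766. The difference was 0.43 ± 0.16 (0.10 to 0.76), with an adjusted p of 0.168. The other Mmp13 probes each differed by 0.26 in the same direction, and the brightest, with an adjusted p of 0.212, passed with slide as a block (0.45, adjusted p = 0.0102), with slide set as a block (0.41, adjusted p = 0.0462) and without 6860766 replicate 1 (0.40, adjusted p = 0.0237).

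Mmp14 averaged 12.22 ± 0.12 with 6877002 and 11.98 ± 0.05 with 6860766, again without overlap (difference 0.23 ± 0.07, adjusted p = 0.0836). Timp2 went the other way, at 8.64 ± 0.11 with 6877002 and 8.91 ± 0.15 with 6860766 (difference -0.27 ± 0.09, adjusted p = 0.11). Without 6860766 replicate 3 that Timp2 difference was -0.36 (adjusted p = 0.0138). That of Mmp9 was then -0.58 (adjusted p = 0.0401), against -0.34 (adjusted p = 0.446) with all arrays. Without mouse number 3 Timp2 passed (-0.42, adjusted p = 0.0069). In both omissions no slide held arrays of both compounds, so compound and slide cannot be told apart there. Within slide 3, which carried 2 arrays with 6877002 and 1 with 6860766, Timp2 differed by -0.17 and Mmp9 by 0.25. With array weights Mmp14 (0.24, adjusted p = 0.0274) and Timp2 (-0.34, adjusted p = 0.011) passed. That the fall of Mmp14 is particular to 6860766 was thus not shown in the fit of all arrays at equal weight. Groups did not overlap for 3 of 14 probes (the dimmest Mmp13 probe and Mmp14 higher, Adam17 probe ILMN_2594718 lower), as in 20.4% of all probes, 9.11% higher and 11.3% lower.

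**Figure D3:**
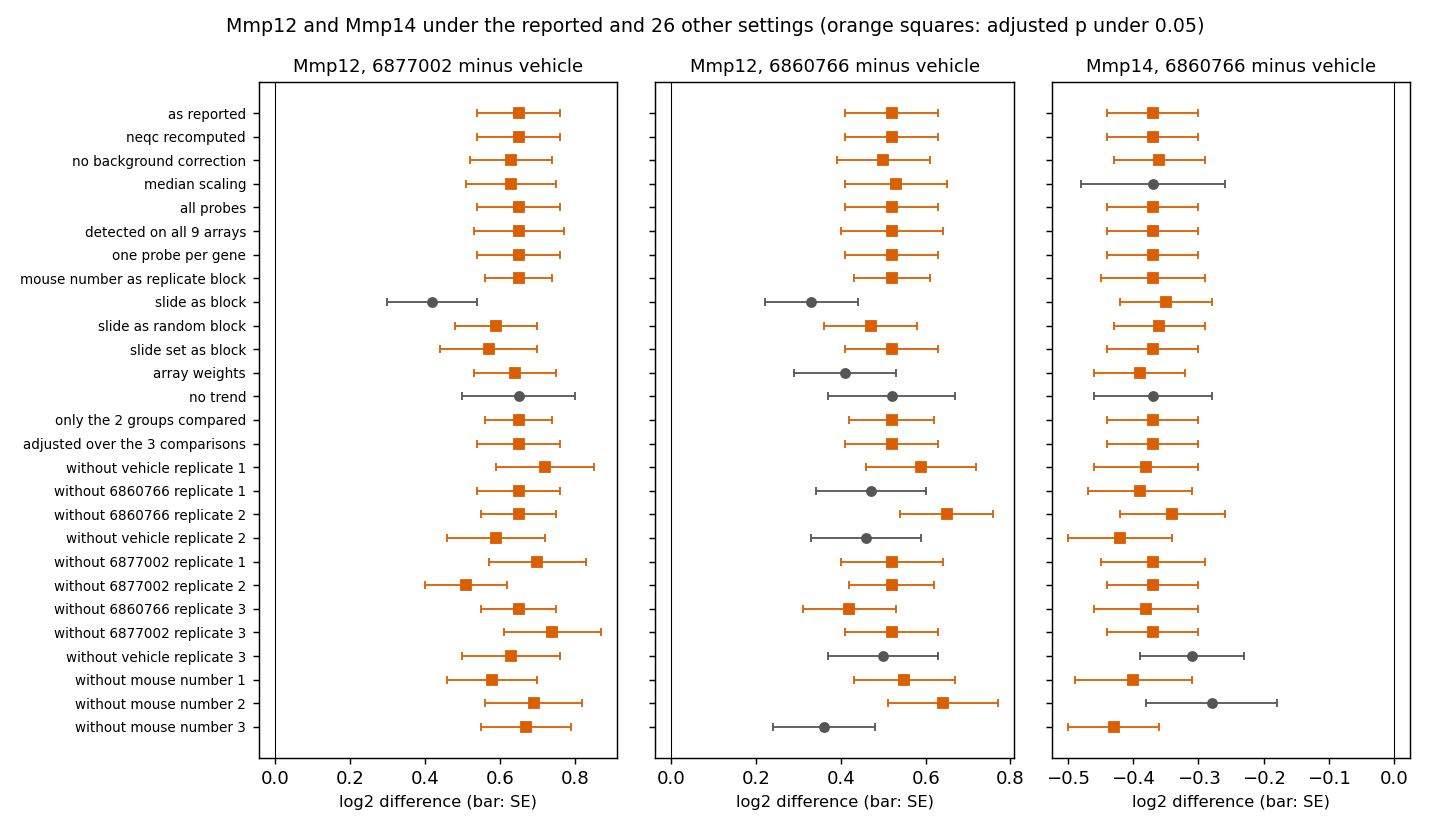
Log2 differences (horizontal axes, bars are the SE) of the 3 member results that passed, under the setting of the report at the top and 26 other settings below it. Orange squares have an adjusted p under 0.05: 24 of 26 for Mmp12 with 6877002, 19 of 26 for Mmp12 with 6860766 and 22 of 26 for Mmp14 with 6860766, and no value changed sign.

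In a test of any difference among the 3 groups (limma's F test), Mmp12 (adjusted p = 0.00216) and Mmp14 (adjusted p = 0.00828) were the member genes that passed, where 5.25% of all probes did. Both F-test calls were lost without a trend, and that of Mmp12 also with slide as a block. That of Mmp14 was also lost with median scaling, without 6860766 replicate 2 and without mouse number 2. Probes of the same gene followed each other to different degrees over the 9 arrays, which share group, slide and mouse number. Pearson's r was 0.954 between Mmp13 probes ILMN_1249336 and ILMN_2737685, but 0.482 and 0.568 between these and the dimmest Mmp13 probe. It was 0.561 for Timp1, 0.694 for Adam8 and 0.58 for Adam17.

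Spread within the groups followed the mouse number of the labels for several members, a pattern singled out after the values were seen. The array of mouse number 1 was the highest of its group in all 3 groups for 5 of 14 probes, where 4.56% of all probes showed this. They were Mmp9, 2 of the Mmp13 probes and both Adam8 probes, so the 5 probes stand for 3 genes and are not independent. For Adam8 probe ILMN_1224005 the 6877002 arrays nearly tied, at 7.47 for mouse number 1 and 7.46 for mouse number 3. Each vehicle array was on its own slide, so mouse number and slide cannot be told apart within vehicle. In each compound group mouse numbers 1 and 2 shared a slide. For Mmp9 the arrays of mouse number 1 read 7.99 with 6877002, 8.61 with 6860766 and 7.90 with vehicle. For the brightest Mmp13 probe they read 13.09 with 6877002, 12.93 with 6860766 and 12.84 with vehicle. Mmp12 did not share the pattern, as its highest 6860766 array was that of mouse number 3.

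**Figure D4:**
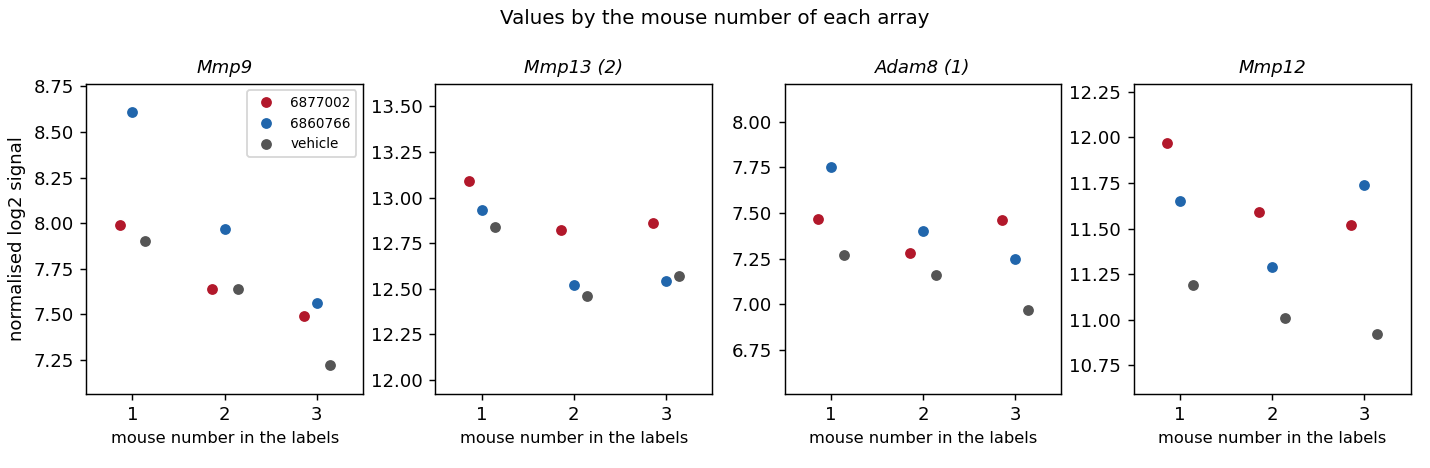
Normalised log2 signal (vertical axes) of 4 member probes by the mouse number in the labels (horizontal axes), with a point per array coloured by group. Mouse number 1 is highest in each group for Mmp9, Mmp13 and Adam8, while for Mmp12 the vehicle points lie lowest at every mouse number. For Adam8 with 6877002, mouse numbers 1 and 3 nearly tie (7.47 and 7.46).

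The genes whose pattern over the 9 arrays was most like that of the 3 members with the lowest F-test p are given as a description, since the arrays share groups and slides. For Mmp12 they were Slc35b3, a nucleotide sugar transporter (Pearson's r = 0.943), Rassf3 (0.937) and Cdt1, a replication licensing factor (0.935). For Mmp14 they were Slc25a1, the mitochondrial citrate carrier (0.938), Nfs1, a cysteine desulfurase (0.907), and Luzp1 (0.899). For Timp2 they were Eno3 (0.96), Iqgap3 (0.959) and Smn1 (0.953).

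For the other gene lists, the share of all probes that passed serves as the background. It was 2.52% for 6877002 against vehicle, 2.4% for 6860766 against vehicle and 3.95% between the compounds. Of 17 further matrix metalloproteinases 3 were tested on 4 probes (Mmp1a, Mmp24 and Mmp28), and 0 passed against vehicle for either compound. Between the compounds Mmp1a passed on 1 of 2 probes. This probe was detected on 3 of 3 arrays with 6877002, 0 of 3 with 6860766 and 1 of 3 with vehicle, so it met the detection rule through the group where it is high, and against 6860766 only a bound can be given. It was at least 1.23-fold higher with 6877002 (adjusted p = 0.0464), and this held under 10 of 24 other settings. The Mmp1a call was lost without 6877002 replicate 1, 2 or 3, 6860766 replicate 1 or 2, or vehicle replicate 2 (adjusted p = 0.0637 to 0.217), and the other Mmp1a probe differed by 0.20. Of 8 further inhibitors listed, 7 had a probe, and 0 of these were kept. Of 5 tested ADAM and ADAMTS genes (8 probes), Adamts4, an aggrecanase, fell with 6877002, and 0 passed with 6860766. Adamts4 averaged 6.12 with 6877002 and 6.71 with vehicle (adjusted p = 0.0336, held under 16 of 26 other settings). The Adamts4 call was lost without 6877002 replicate 1 or 3 or vehicle replicate 1 or 2 (-0.59 to -0.48, adjusted p = 0.111 to 0.19).

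Among 16 tested activators and partners, 2 rose with 6877002 and 2 with 6860766, and 0 fell with either. Of their 24 probes, 2 passed with 6877002 and 2 with 6860766, where 2.52% and 2.4% of all probes passed. Plau, the urokinase that activates plasminogen and through it proMMPs, averaged 8.06 with 6877002, 8.04 with 6860766 and 7.25 with vehicle. It rose by 0.82 ± 0.10 with 6877002 and by 0.79 ± 0.10 with 6860766, and both calls held under all 26 settings tried. Cd9, a tetraspanin partner of ADAM17, rose with 6860766 (0.33 ± 0.07, adjusted p = 0.0148, held under 18 of 26), a call lost without 6860766 replicate 1 or 2 or vehicle replicate 2 or 3 (0.26 to 0.34, adjusted p = 0.0621 to 0.0807). Serpinb2, which inhibits urokinase, averaged 8.26 with 6877002 and 6.37 with vehicle, a rise of 1.89 ± 0.17 (adjusted p = 1.84e-06). It averaged 5.85 with 6860766 (-0.53 ± 0.17 against vehicle, adjusted p = 0.155), and the compounds differed by 2.42 ± 0.17 (adjusted p = 6.54e-08).

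Among 15 tested membrane proteins listed as ADAM17 or ADAM10 substrates, 1 rose and 1 fell with 6877002. With 6860766, 1 rose and 2 fell. Of their 28 probes, 1 rose and 1 fell with 6877002, where 1.68% and 0.841% of all probes did. With 6860766, 1 of the 28 rose and 3 fell, where 0.865% and 1.54% of all probes did. The chemokine Cx3cl1 fell with both (-0.81 ± 0.12 with 6877002 and -0.97 ± 0.12 with 6860766, held under all 26 settings tried). Mertk, an efferocytosis receptor, rose with 6877002 (0.50 ± 0.11, held under 17 of 26), and Trem2, a lipid-sensing receptor, rose with 6860766 (0.40 ± 0.08, held under 23 of 26). Cd40 fell on 2 of 4 probes with 6860766 (-0.34 ± 0.07 for ILMN_2502136 and -0.28 ± 0.06 for ILMN_3115796), and its other probes differed by -0.46 (adjusted p = 0.0639) and -0.33 (adjusted p = 0.129). Without vehicle replicate 2 the calls of Trem2 (0.34, adjusted p = 0.0525) and both these Cd40 probes (-0.30 and -0.24, adjusted p = 0.0525 and 0.11) were lost, and without vehicle replicate 3 that of ILMN_3115796 (-0.29, adjusted p = 0.052). The Mertk call was lost without 6877002 replicate 1 or 2 or vehicle replicate 1 or 3 (0.45 to 0.51, adjusted p = 0.0579 to 0.117). Notch1 was higher with 6877002 than with 6860766 (0.60 ± 0.10, held under 25 of 26), as was Tnfrsf1a, a TNF receptor, on 1 of 3 probes (0.44 ± 0.11, held under 16 of 26). The Tnfrsf1a call was lost without 6877002 replicate 1 or 2 or 6860766 replicate 1 (0.37 to 0.40, adjusted p = 0.113 to 0.17).

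Of 7 tested matrix genes (12 probes) 1 passed, where 2.52% of all probes passed for 6877002. It was Col18a1, which rose with 6877002 on 1 of 2 probes (0.40 ± 0.10, adjusted p = 0.0307, held under 16 of 26). The Col18a1 call was lost without any 1 of the 3 arrays with 6877002 and without vehicle replicate 2 or 3 (0.35 to 0.44, adjusted p = 0.074 to 0.172). Of 13 tested AP-1 and ETS factors (13 probes) 1 passed, where 2.52% of all probes passed for 6877002 and 3.95% between the compounds. It was the FOS family member Fosl2, which fell with 6877002 against vehicle (-0.47 ± 0.10, adjusted p = 0.0131, held under 15 of 26) and was lower with 6877002 than with 6860766 (-0.38 ± 0.10, adjusted p = 0.0375, held under 14 of 26). The Fosl2 fall against vehicle was lost without 6877002 replicate 1 or 3 or vehicle replicate 1 or 2 (-0.47 to -0.41, adjusted p = 0.0527 to 0.108). The Fosl2 difference between the compounds was lost without 6877002 replicate 1 or 3 or 6860766 replicate 1 or 2 (-0.42 to -0.29, adjusted p = 0.0719 to 0.211).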

How the data were processed

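RNA of 9 bone marrow-derived macrophage samples was hybridised to 1-colour Illumina mouse BeadChips. Per the submitters' processing notes, bead intensity and detection p-values came from GenomeStudio 2011.1; the deposited intensity values are not normalised between arrays. The detection p-value in the deposited table ranks a probe among its array's negative controls. The deposited log2 values were made by the authors. The same notes list R 3.1.3 and limma 3.22.7 without naming a function. They differed from limma's neqc (offset 16) on the deposited intensities by at most 0.016, which places them on a background-corrected, quantile-normalised log2 scale.

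These deposited log2 values were fitted in limma 3.58.1 (R 4.3.3), all 9 arrays in 1 fit with a coefficient per group and a spread that follows the mean. Tests were two-sided and moderated, with Benjamini-Hochberg adjustment over 16415 probes and a threshold of 0.05, and an exact permutation of 3 arrays against 3 could not go below p = 0.1. A gene passed when at least 1 kept probe did. Differences are first group minus second, with the SE. The annotation gave 1 symbol to 34885 probes. The number of arrays limits the precision. Arrays had 33.7% to 35.2% of probes detected.

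Slides 3 and 4 carried the 6877002 arrays, slides 1 and 3 those of 6860766, and slides 1, 2 and 4 those of vehicle. On simulated data for 6877002 against vehicle, 48% of probes changed by 0.5 log2 units and 88% of those changed by 1 were recovered. In them 100 probes of each size were raised, with independent noise and no slide or mouse effects, so recovery on the real arrays can differ. Other settings changed the starting values, background, normalisation, probe filter, blocks, weights, spread, samples and adjustment. All members were described. Other genes were named when past the threshold, at most 4 per list and comparison, and some cell type markers were named without passing. Likeness was by Pearson's r. Members and lists were chosen with earlier results of these data known. The F test over the groups and the repeats for genes outside the members were added after seeing the data.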

Additional observations from a re-analysis of the deposited data

How the results depend on the processing

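The directions of Mmp12 and Mmp14 against vehicle held under all 26 other settings, and the settings that ended their calls stand with the results; the cause of a lost call was not tested. The array numbers in the sample titles differ from the mouse numbers, and the labels do not say whether an animal was shared. Same-numbered mice deviated together little (r from -0.14 to 0.15, and 2 of 9 arrays correlated best with their own number). With mouse number as a replicate block, 2 member genes passed for 6877002 against vehicle (Mmp12 and Mmp13), 3 for 6860766 against vehicle (Mmp9, Mmp12 and Mmp14, with Mmp9 gained at 0.46, adjusted p = 0.0367) and 1 between the compounds (Mmp13). The number of probes past the threshold was 414 for 6877002 against vehicle, 394 for 6860766 against vehicle, 649 between the compounds and 861 in the F test. With median scaling it was 257, 196, 382 and 549 in that order. Without a trend it was 159, 72, 375 and 395. With array weights it was 757 for 6877002 against vehicle, 1420 between the compounds and 1524 in the F test. With slide set as a block it was 229 for 6877002, and with only the groups compared it was 756 for 6877002 and 239 for 6860766. With 1 array or mouse number left out it was 153 to 769, 108 to 568, 243 to 1361 and 325 to 1574, lowest without mouse number 2 for 6877002. Member genes past the threshold, 1 for 6877002, numbered 2 with slide set as a block or only the groups compared and 0 with slide as a block or no trend. For 6860766, where 2 passed, 1 did with median scaling or array weights and 0 without a trend, and 0 to 4 with an array or mouse number left out (0 without vehicle replicate 3, 4 without 6860766 replicate 3). Between the compounds 1 passed with either slide block (Mmp13), 3 with array weights (Mmp13, Mmp14 and Timp2), and 0 to 2 with an array or mouse number left out (2 without 6860766 replicate 3). Signs that turned all belonged to differences that had not passed. With slide as a block they were Mmp19 0.09 and Timp2 0.13 (6877002 minus vehicle), Mmp13 -0.12 and -0.09 and Adam17 0.04 (6860766 minus vehicle), and Mmp9 0.02, Mmp19 0.05, Timp1 0.07 and Adam8 0.09 and 0.08 (6877002 minus 6860766). With slide set as a block they were Mmp19 0.16 and Timp2 0.05 (6877002 minus vehicle), and Timp1 0.03 and Adam8 0.03 and 0.04 (6877002 minus 6860766). Slide as a random block gave Timp2 0.03 (6877002 minus vehicle), and median scaling gave Timp1 0.02 (6860766 minus vehicle). With an array, or all 3 arrays of a mouse number, left out, 6877002 minus vehicle ran from -0.07 to 0.28 for Mmp9, -0.21 to 0.09 for Mmp19, -0.06 to 0.19 and -0.29 to 0.14 for Timp1, -0.08 to 0.03 for Timp2, -0.08 to 0.12 for Adam8 and -0.37 to 0.01 for Adam17. For 6860766 minus vehicle the ranges over the same 12 omissions were -0.11 to 0.23 and -0.10 to 0.15 for Mmp13, -0.03 to 0.36 for Mmp19, -0.10 to 0.22 and -0.18 to 0.01 for Timp1, and -0.19 to 0.15 for Adam17. For 6877002 minus 6860766 they were -0.01 to 0.31 for Mmp12, -0.18 to 0.12 for Timp1 and -0.20 to 0.08 for Adam8. Of the members, Mmp19 was too dim on most arrays to give more than a bound, and the dimmest Mmp13 probe and Timp1 lay low in the signal range.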
